A study of Homo sapiens with 5 samples.

Results

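The genes that write, copy and erase DNA methylation were followed across 5 RNA sequencing libraries of the human embryonic stem cell line H9. They are DNMT1, UHRF1, DNMT3A, DNMT3B, DNMT3L, TET1, TET2, TET3 and TDG, and were taken by symbol from the 26506 genes of the deposited table. All 9 were listed, and each reached 1 TPM (transcripts per 1e+06 transcripts) in at least 1 library. The series asked how knockout of B3GALT5, a glycosyltransferase of surface glycolipids, alters the transcriptome in primed culture and after conversion towards the naive state. Wild-type (WT) H9 cells were grown in basal medium (labelled primed), in 2iLAF (labelled primed-naive, the control of the design) and in 5iLAF (labelled naive). B3GALT5-/- cells (KO) were grown in basal medium (labelled primed) and in 2iLAF (labelled naive). Both media are cocktails of kinase inhibitors with added LIF, activin A and FGF2. All libraries were made from H9 with poly(A) selection, and the sources used here do not say how many clones or cultures stand behind each. Each group holds 1 library, so no value has an error between cultures, no p-value is given, and an order of libraries or of genes is that of single measurements.

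Methylation of cytosine in CpG dinucleotides is set by DNMT3A and DNMT3B, the de novo methyltransferases, with DNMT3L, a catalytically inactive cofactor that binds and stimulates them. After replication DNMT1 copies the mark to the new strand, and UHRF1 brings DNMT1 to hemimethylated sites. TET1, TET2 and TET3 oxidise methylcytosine, and TDG excises the most oxidised forms so that base excision repair can restore cytosine. Primed human embryonic stem cells are known for high DNMT3B and a methylated genome. Naive cells are known for high DNMT3L and a hypomethylated genome, with loss of UHRF1 protein described as one route. DNA methylation and protein were not measured in this series, and gene-level TPM does not separate the splice forms of DNMT3B.

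Total TPM is fixed by construction and read depth is unknown. Between 13729 and 14156 genes stood at or above 1 TPM per library. POU5F1, the central pluripotency factor, stood between 1099 and 3350.3 TPM in the 5 libraries. Of 4 genes known from naive human cells (KLF17, DPPA5, ARGFX and TFCP2L1, chosen with earlier results of these data known), 1 was at or above 1 TPM in each of the 5 libraries. It was TFCP2L1, at 2.62 TPM in WT 5iLAF and 1.38 in KO 2iLAF, beside 2.77 in WT basal. KLF17 stood at 0.12 TPM and DPPA5 at 0.20 in WT 5iLAF, and the table lists 0 for both, and for ARGFX, in KO 2iLAF. These markers thus do not set the libraries labelled naive apart, and "naive" is used below only as the label of these libraries. Some libraries stood apart in transcripts of other cell types. KO 2iLAF did so in granulocyte markers (1149 TPM summed), and WT 2iLAF in neuroectoderm markers (313). KO 2iLAF and WT 5iLAF both did so in fibroblast markers (5906 and 2217) and in primitive streak and endoderm markers (1478 and 2481). KO 2iLAF and WT basal also held erythroid markers (221 TPM summed in each). B3GALT5 transcript stood at 9.31 TPM in WT basal and 5.98 in KO basal, and at 5.13 in WT 2iLAF and 1.17 in KO 2iLAF. Which part of the gene was edited is not given in the sources used here, so these levels say nothing of the knockout.

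The promoter windows listed for the writers differ in the letters the enzymes act on. They are shown for DNMT1 and DNMT3B, the copying and the most abundant de novo enzyme, because both were lower in the libraries labelled naive than in basal medium, DNMT3B alone by the size rule given below. The RefSeq table of promoters (GRCh38.p14) held windows of 300 bases, 250 before and 50 after a start, for 8 of the 9 genes, DNMT3L being the other. The DNMT1 window lies at chr19:10194904-10195203 on the minus strand and the DNMT3B window at chr20:32779602-32779901 on the plus strand. Both are written 5′ to 3′ along the gene, with CpG dinucleotides in capitals.
DNMT1: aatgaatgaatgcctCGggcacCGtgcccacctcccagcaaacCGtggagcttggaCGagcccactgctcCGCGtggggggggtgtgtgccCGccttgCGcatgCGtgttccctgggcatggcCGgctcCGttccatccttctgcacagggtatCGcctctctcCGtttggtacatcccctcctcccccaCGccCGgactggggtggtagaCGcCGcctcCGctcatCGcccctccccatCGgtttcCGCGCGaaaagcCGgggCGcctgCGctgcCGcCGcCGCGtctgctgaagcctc
DNMT3B: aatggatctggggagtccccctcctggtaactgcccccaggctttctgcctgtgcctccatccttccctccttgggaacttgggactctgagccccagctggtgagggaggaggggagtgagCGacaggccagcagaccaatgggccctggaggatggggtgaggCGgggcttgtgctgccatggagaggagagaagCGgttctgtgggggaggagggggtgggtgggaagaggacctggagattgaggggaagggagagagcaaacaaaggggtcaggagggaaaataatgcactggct
The DNMT1 window held 30 CpG dinucleotides, and 77.6% of the 35116 windows in the table held fewer. The DNMT3B window held 3, and 18.2% of windows held fewer, against a median of 14. It is the only window listed for DNMT3B. A start of the gene outside it would not be seen, so the count describes this window alone. Windows of UHRF1 held 36 to 46 CpG dinucleotides over 3 annotated starts, those of DNMT3A 18 to 46 over 6, those of TET3 33 and 45, and those of TET1 6 to 11 over 3. TDG had 22 in its 1 window and TET2 13 and 35 in its 2. Methylation of these CpG sites is not known from these data.

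Letters of the E2F motif, which marks many genes of DNA replication, were searched as TTTCGCGC, TTTGGCGC and TTTCCCGC on both strands; matches on opposite strands may overlap. DNMT1 held a match to TTTCGCGC at bases 249 to 256 of its window, on the opposite strand. UHRF1 held matches in 2 of its 3 windows, and the other 6 members with windows held none of these letters. Among all promoters 2.74% of all windows and 3.30% of all genes had a match, as did 9 of 19 proliferation genes with a window. A match is a string of letters and not a measured site.

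DNMT3B was the most abundant member in every library, and DNMT3L and DNMT3B varied most. DNMT3B stood at 754 TPM in WT basal, 478.8 in KO basal, 697 in WT 2iLAF, and at 133 and 135 in the WT 5iLAF and KO 2iLAF libraries. It was thus high in both basal libraries and in WT 2iLAF, and low in both libraries labelled naive. In WT basal it ranked 164th of all genes, and in WT 5iLAF 1145th. DNMT3L stood at 0.04 TPM in each basal library, 1.57 in WT 2iLAF, then 76.4 for WT 5iLAF and 51.4 for KO 2iLAF. It was near 0 in basal medium, low in WT 2iLAF and high where DNMT3B was low. In WT 5iLAF DNMT3L exceeded DNMT1 and DNMT3A. On the log2(TPM + 1) scale the span between highest and lowest library was 6.22 for DNMT3L, more than in 99.6% of the 15761 genes that reached 1 TPM in 1 library, and 2.49 for DNMT3B, more than in 90.4%. The table gives 2 decimals, so ratios against 0.04 TPM carry rounding error and are given only on that scale.

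**Figure D1:**
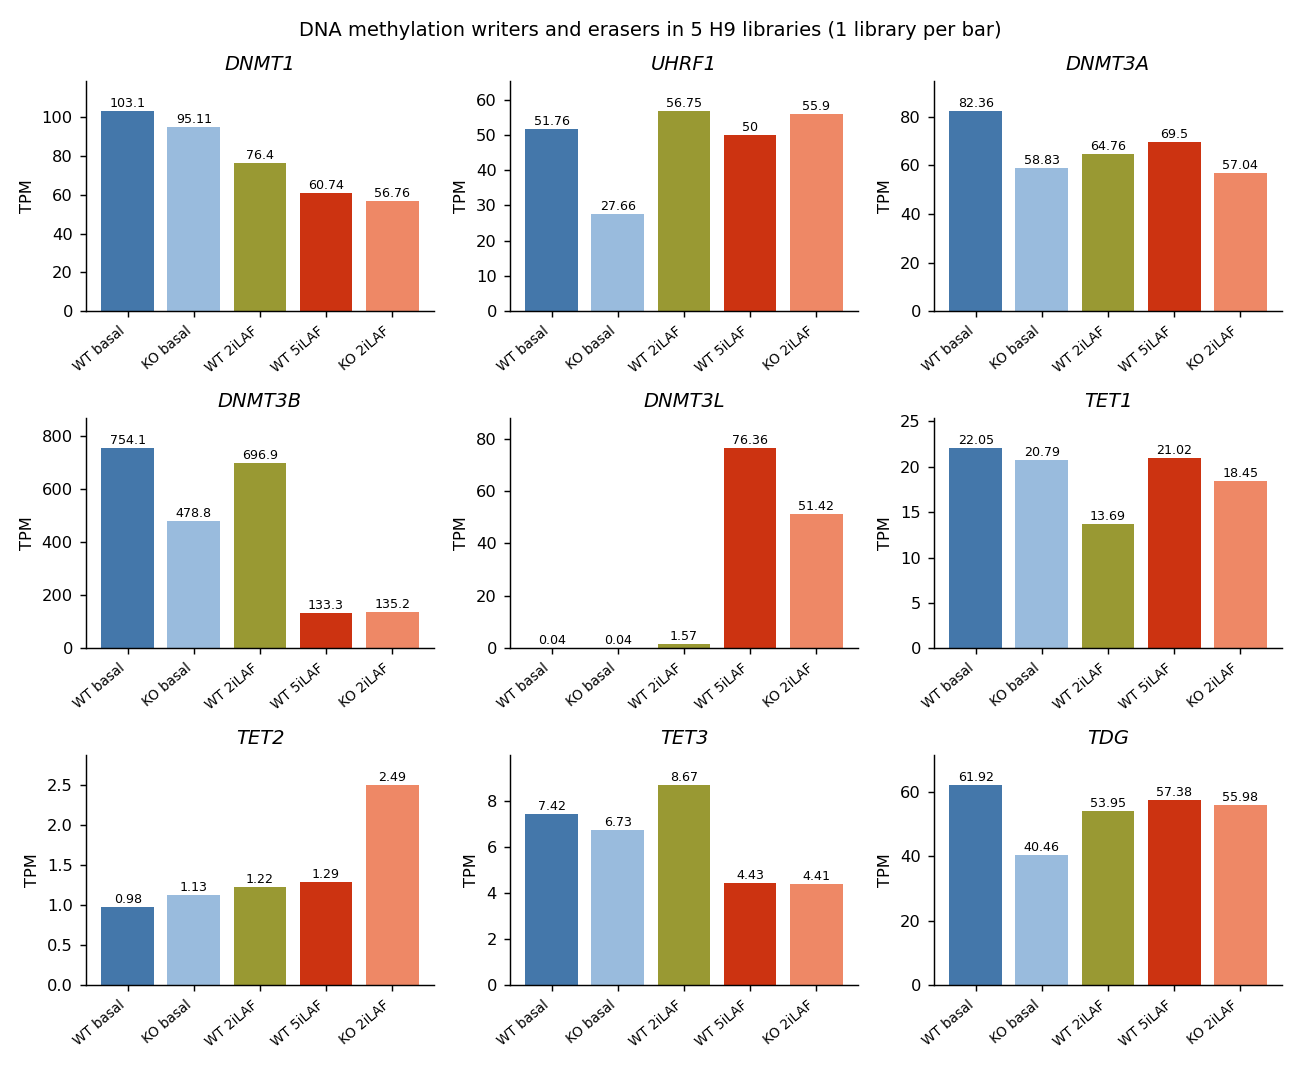
Levels of the 9 genes in TPM (vertical axis, starting at 0 and scaled separately for each gene) in the 5 libraries, 1 bar for each library. DNMT3B falls from 754 TPM in WT basal to 133 in WT 5iLAF, while DNMT3L goes from 0.04 to 76.4.

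DNMT3A, the other catalytic de novo enzyme, varied little. It stood at 82.4 TPM in WT basal, 69.5 in WT 5iLAF, 64.8 in WT 2iLAF, 58.8 in KO basal and 57.0 in KO 2iLAF. Its span of 0.52 exceeded that of 19.0% of genes, and both KO libraries were at the low end. The summed TPM of DNMT3A and DNMT3B was 837 in WT basal, 538 in KO basal, 762 in WT 2iLAF, then 203 for WT 5iLAF and 192 for KO 2iLAF. DNMT3B made up 90.2%, 89.1% and 91.5% of that sum in WT basal, KO basal and WT 2iLAF, and 65.7% and 70.3% in WT 5iLAF and KO 2iLAF. These shares are taken within a library and do not depend on scaling between libraries.

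Of the maintenance pair, DNMT1 was lower in each inhibitor medium than in basal medium and UHRF1 was not. DNMT1 stood at 103 TPM in WT basal, 95.1 in KO basal, 76.4 in WT 2iLAF, then 60.7 for WT 5iLAF and 56.8 for KO 2iLAF. Both basal libraries lay above WT 2iLAF, and WT 2iLAF above both libraries labelled naive. UHRF1 stood at 56.8 TPM in WT 2iLAF, 55.9 in KO 2iLAF, 51.8 in WT basal, 50 in WT 5iLAF and 27.7 in KO basal. For UHRF1 the KO basal library stood apart, and the other 4 lay between 50 and 56.8 TPM. The ratio of UHRF1 to DNMT1 was 0.291 in KO basal, 0.502 in WT basal, 0.743 in WT 2iLAF, then 0.823 for WT 5iLAF and 0.985 for KO 2iLAF.

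Of the erasers, TET1 was the most abundant TET gene in all 5 libraries and TET2 the least. TET1 stood at 22.1 TPM in WT basal, 20.8 in KO basal, 21.0 in WT 5iLAF, 18.5 in KO 2iLAF and 13.7 in WT 2iLAF, which was the low library. TET3 stood at 8.67 TPM in WT 2iLAF, 7.42 in WT basal, 6.73 in KO basal, 4.43 in WT 5iLAF and 4.41 in KO 2iLAF. WT 2iLAF was thus lowest for TET1 and highest for TET3, and TET1 made up 58.1% of summed TET TPM there against 72.4% to 78.6% in the other libraries. TET2 stood at 2.49 TPM in KO 2iLAF and between 0.98 and 1.29 in the other libraries. KO 2iLAF alone also held granulocyte transcripts, a cell type that expresses TET2: 17 of 17 markers were at or above 1 TPM and summed to 1149 TPM, with S100A9 at 583. In the other 4 libraries they summed to between 1.87 and 4.96 TPM, with 8 to 11 of 17 listed at 0. Their part in the TET2 level was not tested. TDG, the glycosylase, stood at 61.9 TPM in WT basal, 57.4 in WT 5iLAF, 56.0 in KO 2iLAF, 54.0 in WT 2iLAF and 40.5 in KO basal, so the KO basal library was again the low one.

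Within a library the ratio of writers to erasers was lowest in both libraries labelled naive. The summed TPM of the catalytic DNMT genes over that of the TET genes was 30.9 in WT basal, 22.1 in KO basal, 35.5 in WT 2iLAF, then 9.86 for WT 5iLAF and 9.82 for KO 2iLAF. Summed TET TPM ranged from 23.6 in WT 2iLAF to 30.5 in WT basal. DNMT3L per summed DNMT3A and DNMT3B was 0.376 in WT 5iLAF, 0.268 in KO 2iLAF and 0.00206 in WT 2iLAF.

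**Figure D2:**
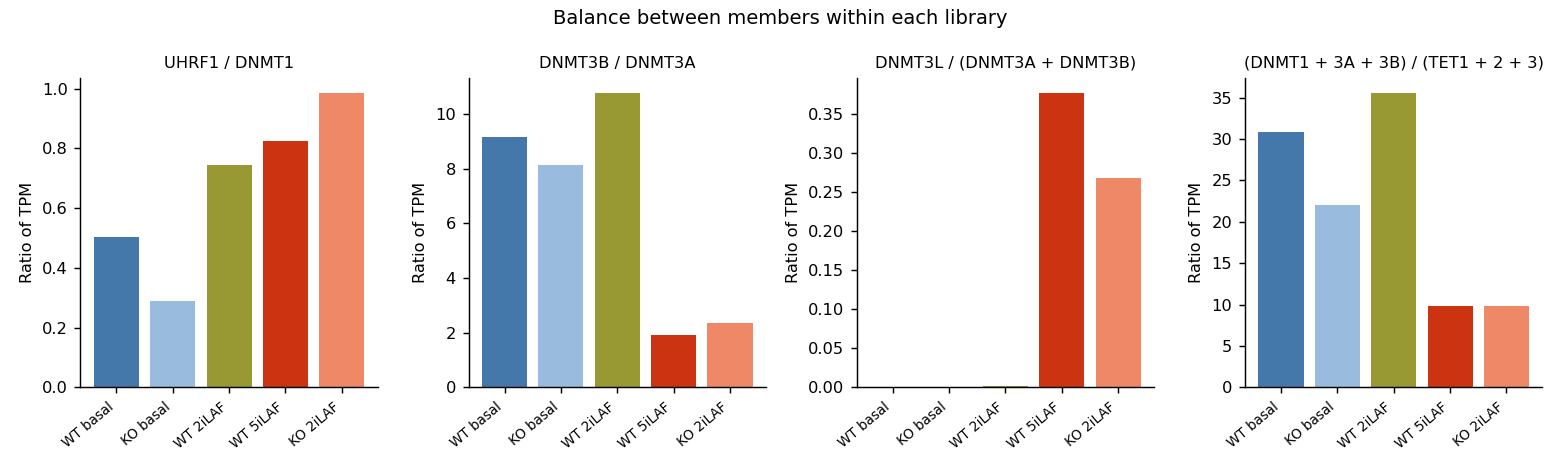
Ratios of TPM between members within each library (vertical axes, starting at 0), 1 bar for each library. UHRF1 per DNMT1 runs from 0.291 in KO basal to 0.985 in KO 2iLAF, and catalytic DNMT per TET is near 10 in both libraries labelled naive.

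Libraries were compared in 7 pairs as the log2 ratio of TPM + 1, and the size rule asked for a ratio of 1 or more in either direction. Pairs that share a library are not independent of each other. Median-ratio scaling between libraries moved all genes by less than 0.1 on the log2 scale except in WT 2iLAF against WT basal, where the factor was -0.18 (-0.16 with trimmed-mean scaling). With trimmed-mean scaling the factor of KO 2iLAF against WT 2iLAF was 0.11.

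**Figure D3:**
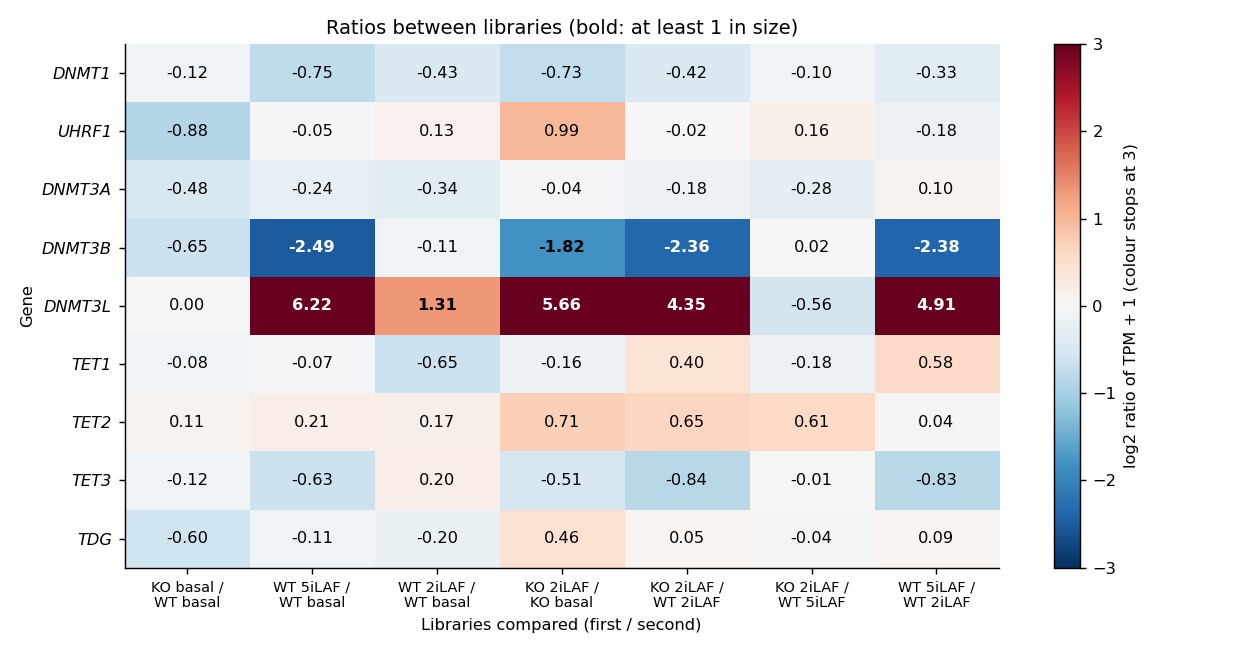
The log2 ratio of TPM + 1 for each gene (rows) in each pair of libraries (columns, first over second), with bold values at least 1 in size. DNMT3B and DNMT3L carry all bold values, and the columns of KO basal against WT basal and KO 2iLAF against WT 5iLAF hold none.

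Loss of B3GALT5 in basal medium came with lower UHRF1, DNMT3B, TDG and DNMT3A, none of them by the size rule. In KO basal against WT basal 0 of 9 members passed it, against 1.76% of the 15761 genes (0.704% higher and 1.05% lower). UHRF1 had the lowest ratio, -0.88, and 1.48% of genes had a lower one. DNMT3B followed at -0.65, TDG at -0.60 and DNMT3A at -0.48, with 3.53%, 4.45% and 7.77% of genes below them. DNMT1 (-0.12), TET3 (-0.12) and TET1 (-0.08, and 0.00 with median-ratio scaling) were close to level, TET2 was at 0.11 and DNMT3L at 0.00. Thus 7 of 9 members had negative ratios, as did 58.8% of all genes. The member median was -0.12, beside -0.06 over all genes. Proliferation genes had a median of -0.14 with 0 of 21 past the rule, and 7 of 7 erythroid markers tested were lower (3.40 TPM summed in KO basal against 221 in WT basal). Those 7 were also lower in both WT medium comparisons, which share the WT basal library, and the list summed to 12.3 TPM in WT 5iLAF and 0.34 in WT 2iLAF. HBG1 and SLC4A1 of this list reached 1 TPM only in WT basal, so their direction against it was fixed by the filter. The part of either list in the ratios was not tested.

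In WT cells 5iLAF came with lower DNMT3B and higher DNMT3L, and DNMT3B remained the more abundant of the pair (133 against 76.4 TPM). In WT 5iLAF against WT basal 2 of 9 members passed the size rule, against 22.1% of genes (10.7% higher and 11.4% lower). DNMT3L was higher at 6.22 and DNMT3B lower at -2.49, and 1.74% of genes lay below DNMT3B. DNMT1 stood at -0.75 and TET3 at -0.63. UHRF1 (-0.05), TET1 (-0.07), TDG (-0.11), TET2 (0.21) and DNMT3A (-0.24) were nearer 0, and UHRF1 and TET1 turned positive with median-ratio scaling, at 0.04 and 0.02. The 21 proliferation genes had a median of -0.66, with 3 lower and 0 higher, beside -0.06 over all genes. The DNMT1 ratio lay near the proliferation median and the UHRF1 ratio above it, and the part of proliferation in either was not tested. In the same pair 10 of 10 primitive streak and endoderm markers were higher (2481 against 8.24 TPM summed), as were 6 of 9 fibroblast markers (2217 against 248). T, EOMES, GSC, GATA4, GATA6, SOX17, HAND1, COL3A1, LUM, POSTN and PDGFRA reached 1 TPM only in the libraries labelled naive. These could thus not be called lower against WT basal. The part of both marker lists in the ratios was not tested. In these bulk libraries fewer cells with a transcript and less transcript per cell cannot be told apart.

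In WT cells 2iLAF left DNMT3B near its basal level (697 against 754 TPM). In WT 2iLAF against WT basal 1 of 9 members passed the size rule, against 11.8% of genes (4.73% higher and 7.02% lower). It was DNMT3L, at 1.31, which stood at 0.38 with a pseudocount of 5 and 0.84 with FPKM, below the rule. DNMT3B was at -0.11, and at 0.06 and 0.05 with median-ratio and trimmed-mean scaling. TET1 stood at -0.65, DNMT1 at -0.43, DNMT3A at -0.34 and TDG at -0.20, beside a median of -0.13 over all genes. TET3 (0.20), TET2 (0.17) and UHRF1 (0.13) were on the other side of 0. Neuroectoderm markers summed to 313 TPM in WT 2iLAF and 5.28 in WT basal, with SOX21 at 101 TPM. In WT 2iLAF 5 of 8 were at or above 1 TPM, while PAX6, SOX1 and LHX2 stood at 0.27, 0.27 and 0. Of 9 pluripotent cell markers 2 were higher and 5 lower. The part of either list in these ratios was not tested.

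In KO cells 2iLAF came with lower DNMT3B (135 against 478.8 TPM) and higher DNMT3L (51.4 against 0.04). In KO 2iLAF against KO basal 2 of 9 members passed the size rule, against 27.7% of genes (15.9% higher and 11.8% lower). DNMT3L was higher at 5.66 and DNMT3B lower at -1.82. UHRF1 stood at 0.99, just short of the rule, from the low level of the KO basal library. DNMT1 stood at -0.73 and TET3 at -0.51, while TET2 was at 0.71, TDG at 0.46, TET1 at -0.16 and DNMT3A at -0.04. Proliferation genes had a median of -0.56, with 4 of 21 lower, and the part of proliferation in the member ratios was not tested. In the same pair 17 of 17 granulocyte markers were higher (1149 against 3.09 TPM summed), as were 8 of 9 fibroblast markers (5906 against 274), 10 of 10 primitive streak and endoderm markers (1478 against 5.50) and 5 of 7 erythroid markers tested (221 against 3.40). All granulocyte markers but AZU1, LCN2 and PTPRC reached 1 TPM only in KO 2iLAF, as did DCN, so their direction was fixed by the filter. T, EOMES, GSC, GATA4, GATA6, SOX17, HAND1, COL3A1, LUM, POSTN and PDGFRA reached 1 TPM only in the libraries labelled naive. These could thus not be called lower against KO basal. The part of these marker lists in the member ratios was not tested.

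KO and WT cells in the same 2iLAF medium differed in DNMT3B and DNMT3L. In KO 2iLAF against WT 2iLAF 2 of 9 members passed the size rule, against 27.5% of genes (16.6% higher and 10.8% lower), DNMT3L at 4.35 and DNMT3B at -2.36. TET3 stood at -0.84, DNMT1 at -0.42 and DNMT3A at -0.18, while TET2 was at 0.65 and TET1 at 0.40. UHRF1 (-0.02) and TDG (0.05, and -0.03 with median-ratio scaling) were close to level. WT 5iLAF against WT 2iLAF, which changes the medium and not the genotype, gave 2 of 9 members against 21.7% of genes (12.2% higher and 9.53% lower). There DNMT3L stood at 4.91, DNMT3B at -2.38, TET3 at -0.83 and TET1 at 0.58. Both pairs share the WT 2iLAF library. Of 8 neuroectoderm markers listed 5 were tested, and all were lower in each pair. The list summed to 313 TPM in WT 2iLAF, 3.32 in KO 2iLAF and 3.38 in WT 5iLAF. SIX3 and LHX5 reached 1 TPM only in WT 2iLAF, so their direction was fixed by the filter. PAX6, SOX1 and LHX2 stayed below 1 TPM in every library and were not tested. In each pair 10 of 10 primitive streak and endoderm markers were higher (1478 in KO 2iLAF and 2481 in WT 5iLAF against 3.11 TPM summed). Fibroblast markers were higher in 8 of 9 and 7 of 9 (5906 and 2217 against 359 TPM summed). Granulocyte markers were higher in 17 of 17 in KO 2iLAF (1149 against 4.96 TPM summed). All of these but AZU1, LCN2 and PTPRC reached 1 TPM only in KO 2iLAF, so their direction was fixed by the filter. No streak or endoderm marker reached 1 TPM in WT 2iLAF, nor did COL3A1, LUM, POSTN, PDGFRA or DCN. None of them could thus be called lower in either pair. The part of these markers in the member ratios was not tested.

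The libraries labelled naive had similar DNMT3B levels and differed most in TET2 and DNMT3L. In KO 2iLAF against WT 5iLAF 0 of 9 members passed the size rule, against 5.93% of genes (4.9% higher and 1.03% lower). Since few genes of any kind passed in this pair, the count of 0 says nothing particular of the members. TET2 stood at 0.61, above 91.2% of genes, and DNMT3L at -0.56, with 5.03% of genes lower. DNMT3A stood at -0.28, with 15.3% of genes lower. TET1 (-0.18), UHRF1 (0.16), DNMT1 (-0.10), TDG (-0.04), DNMT3B (0.02, and -0.03 with FPKM) and TET3 (-0.01) were nearer 0. In the same pair 17 of 17 granulocyte markers were higher (1149 against 3.68 TPM summed), as were 4 of 9 fibroblast markers (5906 against 2217) and 5 of 7 erythroid markers tested (221 against 12.3). All granulocyte markers but AZU1, LCN2 and PTPRC reached 1 TPM only in KO 2iLAF, as did DCN, so their direction was fixed by the filter. The part of these marker lists in the member ratios was not tested. With 1 library on each side these values do not show that the cultures are the same.

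The medium change was set side by side in both genotypes. From basal medium to 2iLAF DNMT3B moved by -0.11 in WT and -1.82 in KO, a difference of -1.70, and 4.40% of genes had a lower difference. DNMT3L moved by 1.31 and 5.66, a difference of 4.35, above that of 99.1% of genes. UHRF1 moved by 0.13 and 0.99, a difference of 0.86, above that of 77.2% of genes. Its KO and WT levels were 27.7 and 51.8 TPM in basal medium and 55.9 and 56.8 in 2iLAF. TDG moved by -0.20 in WT and 0.46 in KO, a difference above that of 70.5% of genes. TET3 moved by 0.20 and -0.51, and 16.1% of genes had a lower difference. Positions of the other 4 members lay between 27.97% and 66.5%. No test of these differences is possible with 1 library each.

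Genes with the most similar pattern were sought for the 3 members that spanned at least 1 on the log2 scale. The measure was the root-mean-square difference of log2(TPM + 1), each gene centred on its own mean over the 5 libraries, among 10376 genes that reached 10 TPM. Nearest to DNMT3B were EPHB6, an ephrin receptor without kinase activity (0.13), ZBTB12 (0.13) and CACNA1H, a T-type calcium channel (0.15). EPHB6 stood at 12.4, 7.48 and 13.7 TPM in WT basal, KO basal and WT 2iLAF and at 1.48 and 2.00 in WT 5iLAF and KO 2iLAF. Nearest to DNMT3L were HIST1H2BN, a histone gene whose reads may be shared with near-identical copies (0.28), WLS, which carries WNT proteins to the surface (0.31), and FGF17 (0.33). WLS stood at 3.09, 4.05 and 16.0 TPM in WT basal, KO basal and WT 2iLAF and at 328 and 345 in WT 5iLAF and KO 2iLAF. Nearest to UHRF1 were R3HCC1 (0.06), HPDL (0.08) and RPS27L (0.08), a ribosomal protein S27 homologue. RPS27L stood at 53.9 TPM in KO basal and between 95.5 and 105 in the other 4 libraries, so it shared the low KO basal value. With 5 libraries such likeness is a description.

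Other genes of the pathway were counted by the same rule, and their counts are to be read against the shares of all genes. These were 10.7% higher and 11.4% lower in WT 5iLAF, 4.73% and 7.02% in WT 2iLAF, and 15.9% and 11.8% in KO 2iLAF, each against its basal library. Between KO basal and WT basal they were 0.704% and 1.05%, so list counts near 0 in that pair are near the share. Medians over all genes were -0.06, -0.13 and 0.02 in these pairs, and -0.06 in KO basal against WT basal.

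Among partners of maintenance HELLS, CDCA7L and EHMT2 were lower in both libraries labelled naive, and most of the list did not pass. Of 14 such genes 3 were lower and 0 higher in WT 5iLAF against WT basal (median -0.36, beside -0.06 over all genes). In KO 2iLAF against KO basal 3 were lower and 1 higher (-0.47 beside 0.02), so 4 of 14 passed where 27.7% of all genes did. HELLS, a chromatin remodeller needed for DNA methylation, stood at 60.6 TPM in WT basal, 53.2 in KO basal, 31.2 in WT 2iLAF, then 24.9 for WT 5iLAF and 21.3 for KO 2iLAF, the same order of libraries as DNMT1. CDCA7, its partner, stood at 121, 114, 68.9, 69.4 and 64.6 TPM in that order of libraries. CDCA7L was at 43.8 against 102 TPM and EHMT2, a histone H3 lysine methyltransferase, at 60.5 against 127 in WT 5iLAF against WT basal. The higher gene was DPPA3, an inhibitor of UHRF1 function, at 3.21 TPM in KO 2iLAF against 0.79 in KO basal. DPPA3 stood at 2.15 TPM in WT basal, 1.09 in WT 2iLAF and 4.1 in WT 5iLAF. In WT 2iLAF against WT basal 1 of 14 was higher, ZBTB24 at 27.1 against 9.99 TPM, and 0 lower (-0.09 beside -0.13). In KO basal against WT basal 0 of 14 passed (-0.16 beside -0.06).

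Of the readers of methylated DNA few passed the size rule, in numbers near the shares over all genes. Of 10 genes 1 was higher and 0 lower in WT 5iLAF against WT basal, where 10.7% of all genes were higher (median 0.45 beside -0.06). In KO 2iLAF against KO basal 2 were higher and 0 lower, where 15.9% of all genes were higher (0.47 beside 0.02). In WT 2iLAF against WT basal and in KO basal against WT basal 0 of 10 passed, with medians of 0.09 beside -0.13 and 0.02 beside -0.06. MBD2, a methyl-CpG binding subunit of a repressor complex, stood at 51.8 TPM in WT 5iLAF against 22.9 in WT basal. MBD6 stood at 22.9 TPM in KO 2iLAF against 10.3 in KO basal. The other higher gene, ZBTB38, was below the level set for naming and is given because it was counted, at 7.76 against 3.36 TPM.

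Of 9 histone enzymes that steer de novo methylation 0 passed in the 4 comparisons with a basal library, with medians of -0.11 (KO basal), 0.06 (WT 5iLAF), -0.22 (WT 2iLAF) and 0.20 (KO 2iLAF). KDM1A, a histone H3 lysine demethylase, had the highest level in each library, from 284 TPM in WT basal to 151 in KO 2iLAF.

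Among TET partners and enzymes that supply their cofactor, PRDM14 was higher in each medium than in basal medium. PRDM14, a repressor of Dnmt3b in mouse naive cells, stood at 23.8 TPM in WT basal, 19.3 in KO basal, 92.7 in WT 2iLAF, then 57.2 for WT 5iLAF and 55.2 for KO 2iLAF. It was thus highest in WT 2iLAF, where DNMT3B stood at 697 TPM. In WT 5iLAF and KO 2iLAF, where it was also above basal medium, DNMT3B stood at 133 and 135 TPM. The part of PRDM14 in the DNMT3B level was not tested. Of 9 genes 1 was higher and 1 lower in each of the 3 medium comparisons, PRDM14 being the higher. These 2 of 9 stood beside 22.1%, 11.8% and 27.7% of all genes in WT 5iLAF, WT 2iLAF and KO 2iLAF, and the list medians were -0.20, -0.47 and -0.35 beside -0.06, -0.13 and 0.02. The lower gene was IDH3A in WT 2iLAF, at 9.01 against 24.7 TPM. In WT 5iLAF and KO 2iLAF it was CXXC4, below the level set for naming, at 0.43 against 3.59 and 0.49 against 3.73 TPM. CXXC4 stayed below 1 TPM in both, so it could not be called higher there. In KO basal against WT basal 0 of 9 passed (-0.11).

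Base excision repair acts after TDG. Of 15 genes tested out of 16 listed, 3 were higher and 2 lower in WT 5iLAF, 2 higher and 1 lower in WT 2iLAF, and 3 higher and 3 lower in KO 2iLAF, each against basal medium. Over all genes 22.1%, 11.8% and 27.7% passed in these pairs. The list medians were -0.27, -0.23 and -0.24, beside -0.06, -0.13 and 0.02 over all genes. The higher genes were stress-inducible GADD45 genes, which have been linked to demethylation. GADD45B stood at 65.9 TPM in WT 5iLAF and 63.6 in KO 2iLAF, against 6.33 in WT basal and 21.8 in KO basal. That gene was also the 1 of 15 to pass between the basal libraries, where 0 were lower (median -0.08). GADD45G and GADD45A passed in all 3 medium comparisons, GADD45G reaching 34.7 TPM in WT 2iLAF against 7.60 in WT basal. UNG, the uracil glycosylase, stood at 112 against 227 TPM in WT 5iLAF and 97.5 against 273 in KO 2iLAF. NEIL1, lower in WT 5iLAF and KO 2iLAF, and NTHL1, lower in KO 2iLAF at 40.3 against 89.0 TPM, were outside the rule for naming and are given because they were counted. In WT 2iLAF the lower gene was NEIL3, at 5.37 against 16.9 TPM.

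Supply of the methyl donor S-adenosylmethionine was followed in 15 tested genes of 16 listed. MAT2A, which makes the donor in most tissues, stood at 188 TPM in WT basal, 139.6 in KO basal, 197 in WT 2iLAF, then 193 for WT 5iLAF and 193 for KO 2iLAF, so KO basal was the low library. AHCY, which removes the inhibitory product of methylation, stood between 485 and 509.8 TPM in the basal libraries and WT 2iLAF and at 299.9 and 275 in WT 5iLAF and KO 2iLAF. Of the list 0 were higher and 3 lower in WT 2iLAF against WT basal, where 7.02% of all genes were lower (median -0.22 beside -0.13). These were the folate enzymes MTHFD1 (82.8 against 186 TPM), SHMT2 (173 against 387) and MTHFD2 (109 against 225). Between KO 2iLAF and KO basal 1 was higher and 2 lower, 3 of 15 where 27.7% of all genes passed (-0.46 beside 0.02). The higher was NNMT, which consumes the donor, at 51.7 against 0.10 TPM, and the lower were MTHFD2 (158 against 339.8) and MAT1A, below the level set for naming. NNMT stood at 7.18 TPM in WT 5iLAF and was listed at 0 in WT basal, and with MAT1A it made the 1 higher and 1 lower gene there, 2 of 15 where 22.1% of all genes passed (-0.34 beside -0.06). NNMT reached 1 TPM only in the libraries labelled naive, so it could not be called lower against a basal library. MAT1A stayed below 1 TPM in both libraries labelled naive, so it could not be called higher there. NNMT is also expressed by fibroblasts, whose markers summed to 5906 TPM in KO 2iLAF, 2217 in WT 5iLAF and 248 to 359 in the other 3 libraries. Their part in the NNMT level was not tested. In KO basal against WT basal 0 of 15 passed (-0.01).

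**Figure D4:**
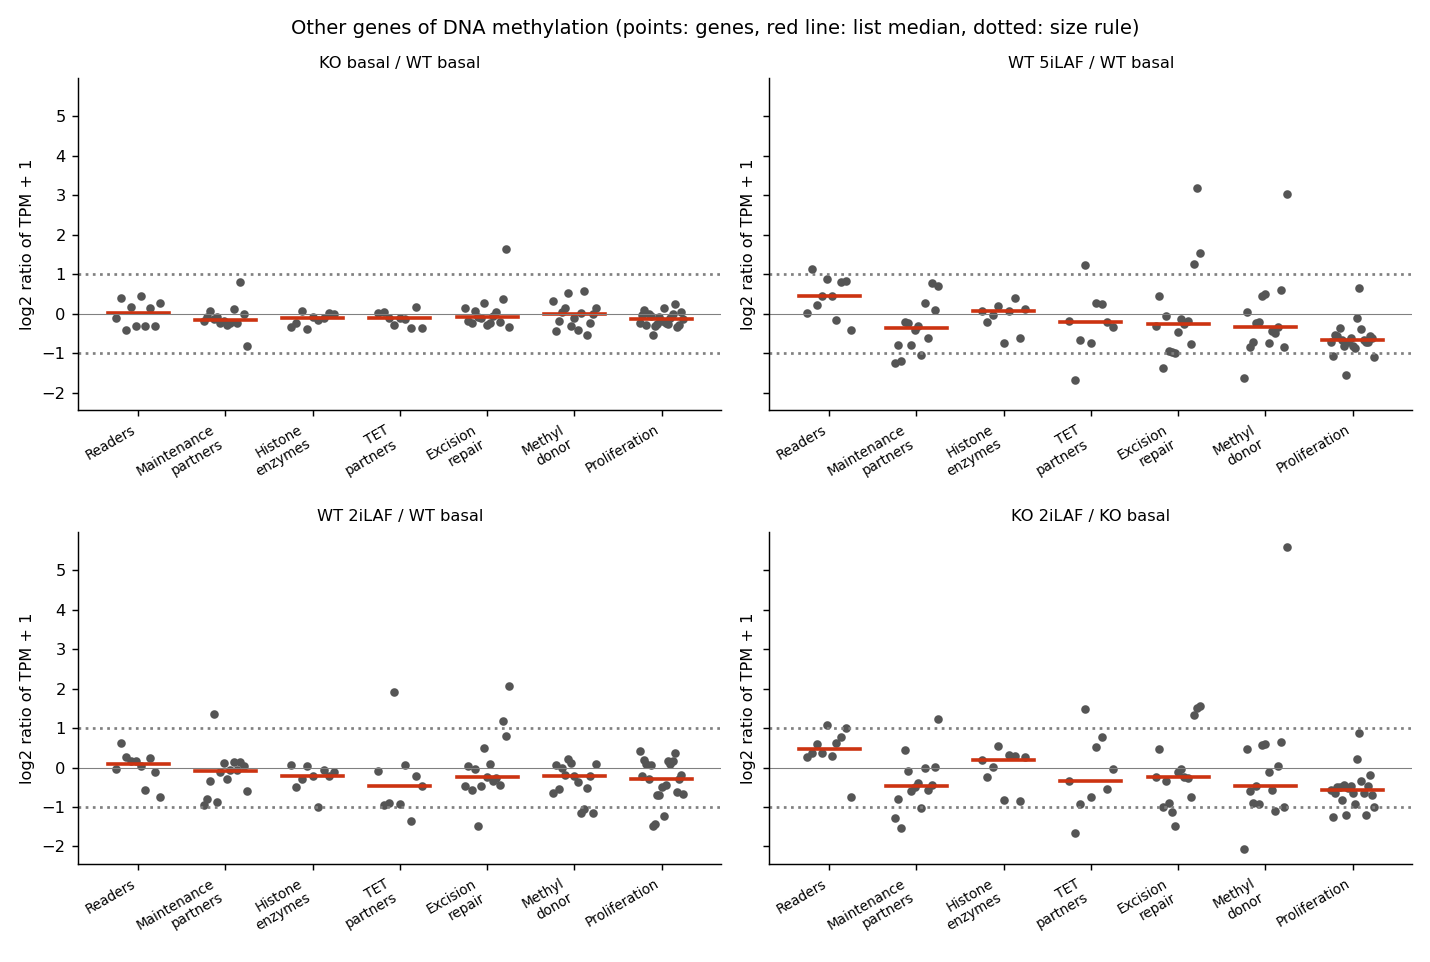
The log2 ratio of TPM + 1 (vertical axis) of each gene in 7 lists (horizontal axis) for KO basal against WT basal and the 3 medium comparisons, with list medians as red lines and the size rule dotted. Readers lie mostly above 0 in WT 5iLAF and KO 2iLAF (medians 0.45 and 0.47), and proliferation genes mostly below (-0.66 and -0.56).

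Of 15 germline genes that promoter methylation keeps silent, 3 reached 1 TPM in any library. They were DAZL, PIWIL2 and GTSF1, named after their values were seen. DAZL was higher in WT 2iLAF against WT basal, PIWIL2 and GTSF1 were lower in WT 5iLAF against WT basal, and PIWIL2 was lower in KO basal against WT basal. DAZL reached 1 TPM only in WT 2iLAF, so its direction there was fixed by the filter. PIWIL2 and GTSF1 reached 1 TPM only in WT basal and WT 2iLAF, so neither could be called higher in WT 5iLAF or KO basal. All 3 stayed below 1 TPM in both KO libraries, so none could pass in KO 2iLAF against KO basal. These counts are too few to set against the share of all genes. The list summed to 1.48 TPM in WT 5iLAF and 1.94 in KO 2iLAF, against 5.88 in WT basal and 2.36 in KO basal. In WT 2iLAF it summed to 12.6 TPM, of which DAZL, a germ cell RNA-binding protein, made 9.93. DAZL stood at 0.89 TPM in WT basal and 0.08 in WT 5iLAF and was listed at 0 in KO 2iLAF. DDX4, the germ cell helicase, stood at or below 0.09 TPM in all 5 libraries.

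Other cell types are marked in some of these libraries. Primitive streak and endoderm markers summed to 2481 TPM in WT 5iLAF and 1478 in KO 2iLAF, with 10 of 10 at or above 1 TPM in both, and to between 3.11 and 8.24 in the other 3 libraries. The summed pluripotent cell markers were 6125 TPM in WT basal, 5609.6 in KO basal, 3358 in WT 2iLAF, then 3467 for WT 5iLAF and 2854 for KO 2iLAF. Streak and fibroblast markers were thus high in the same 2 libraries as DNMT3L, and their part in the levels of DNMT3B and DNMT3L was not tested. Leaving out 34 granulocyte, erythroid and fibroblast marker genes and rescaling, which removed 0.728% of TPM in KO 2iLAF, left the count of members past the size rule at its value in all 7 comparisons. That step removes only the marker genes and not other transcripts of such cells.

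**Figure D5:**
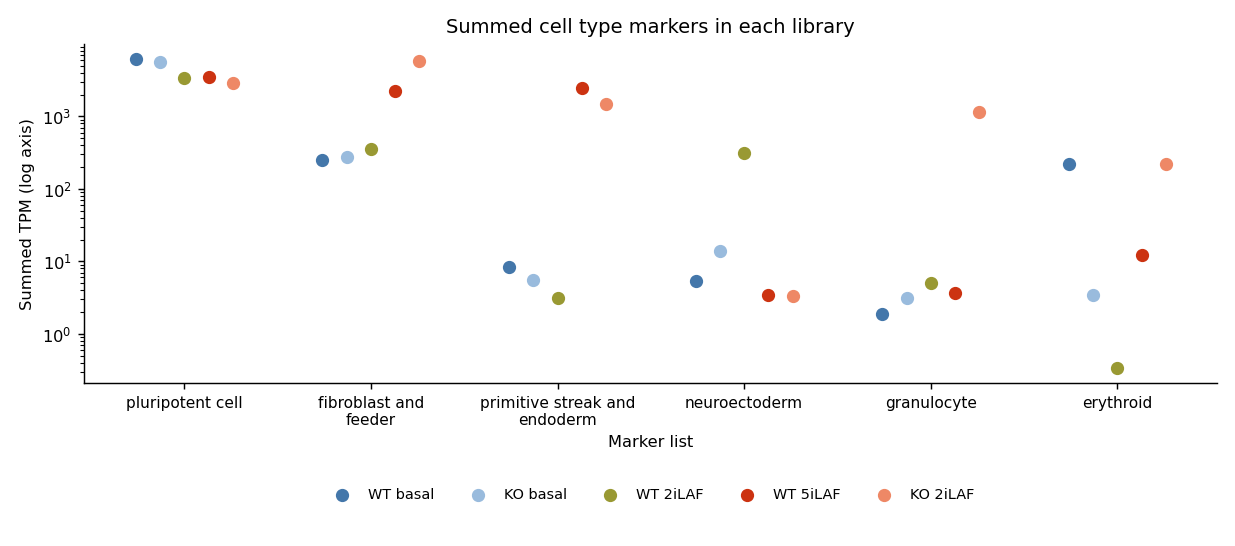
Summed TPM of 6 marker lists (horizontal axis) on a log axis, 1 point for each library. Granulocyte markers reach 1149 TPM only in KO 2iLAF, and primitive streak and endoderm markers are high in WT 5iLAF and KO 2iLAF.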

How the data were processed

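Poly(A) RNA of 5 H9 cultures was sequenced from stranded TruSeq libraries, per the labels' protocols. The submitters' processing notes name Trimmomatic 0.39, Bowtie2 2.3.4.1, RSEM 1.2.28 and hg19; the annotation and the strand setting were not stated there. For each library the authors deposited TPM and FPKM values per gene, with no counts, so depth and counting error are unknown. RSEM shares out multi-mapping reads by estimate. The table's 18 further columns were empty.

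Each library was its own group. The log2 ratio of TPM + 1 was taken in 7 pairs over genes at or above 1 TPM in 1 library, with a size rule of 1. No test was possible, and no p-value was computed. The members, the lists and the rule for naming genes (all members; up to 4 genes per list and pair, past the size rule and at 10 TPM) were chosen with earlier results of these data known. Alternatives were pseudocounts of 0.1 and 5, no filter, 2 scalings, a 1.5-fold rule and FPKM; leaving out markers of other cells was added later. Promoter windows came from RefSeq. Python 3.11.15, numpy 2.4.6, pandas 2.3.3 and matplotlib 3.10.9 were used, and the size rule was tested on simulated data.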

Additional observations from a re-analysis of the deposited data

Results flagged for a closer look

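Of the 9 members, 3 moved in opposite directions in contrasts that share a design, each with 1 library on either side, so none of these differences was tested. TET3 moved by 0.20 from basal medium to 2iLAF in WT and by -0.51 in KO, a difference of -0.71. TDG moved by -0.20 in WT and 0.46 in KO over the same change, a difference of 0.65. Seen as KO against WT, TDG stood at -0.60 in basal medium and 0.05 in 2iLAF, the same difference of 0.65. TET1 stood at -0.08 in basal medium and 0.40 in 2iLAF, KO against WT, a difference of 0.49. The size rule was met by none of these single ratios. The signs of TET1 in basal medium and of TDG in 2iLAF turned with median-ratio scaling, to 0.00 and -0.03.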

How the results depend on the processing

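The count of members past the size rule changed with 4 settings. With a 1.5-fold rule it was 3 in KO basal against WT basal, 4 in WT 5iLAF and 2 in WT 2iLAF against WT basal, 5 in KO 2iLAF against KO basal, 4 in KO 2iLAF against WT 2iLAF, 1 in KO 2iLAF against WT 5iLAF and 3 in WT 5iLAF against WT 2iLAF. In WT 2iLAF against WT basal it was 0 with a pseudocount of 5 and 0 with FPKM, where DNMT3L no longer passed. In KO 2iLAF against KO basal it was 4 with a pseudocount of 0.1, as UHRF1 (1.01) and TET2 (1.07) passed. No ratio past the rule turned sign. Smaller ratios that turned sign or left 0 did so between -0.11 and 0.09, 7 of 63 with median-ratio and 6 with trimmed-mean scaling. Each count includes DNMT3L in KO basal against WT basal, which did not turn sign but moved from 0 to 0.003.

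Over all genes the counts past the rule were 277, 3487, 1852, 4370, 4328, 935 and 3427 in the order KO basal, WT 5iLAF and WT 2iLAF against WT basal, KO 2iLAF against KO basal, WT 2iLAF and WT 5iLAF, and WT 5iLAF against WT 2iLAF. With a pseudocount of 5 they were 74, 1717, 806, 2229, 2195, 323 and 1681, and with a 1.5-fold rule 1205, 6401, 4748, 7584, 7404, 2160 and 6395. With a pseudocount of 0.1 they were 848 in KO basal and 3000 in WT 2iLAF against WT basal and 1711 in KO 2iLAF against WT 5iLAF, and with FPKM 160 in KO basal against WT basal and 589 in KO 2iLAF against WT 5iLAF. In WT 2iLAF against WT basal 745 genes were higher and 1107 lower, and 958 and 828 after median-ratio scaling. The unknown depth leaves TET2 and DNMT3L near 0 without a stated precision. No paired analysis was possible because each group holds 1 library.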
